A study of Homo sapiens with 6 samples.

Results

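The squamous lineage transcription factors described here are 10 genes, TP63, SOX2, KLF4, KLF5, GRHL1, GRHL3, ZNF750, OVOL1, TFAP2A and PAX9, which set squamous identity or drive the differentiation of keratinocytes. They were chosen by name, and their probes were found by matching the RefSeq accession of each non-control probe to these symbols. All 10 had a probe on the array, out of 19740 genes with one, and together they had 13 probes, because GRHL1, GRHL3 and PAX9 had a pair of probes each.

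Total RNA of CAL-27 cells, an established human line derived from tongue squamous cell carcinoma, was hybridised to 1-colour Agilent arrays, 1 array per sample. In shXBP-1s (n = 3) the cells carried a short hairpin RNA against XBP-1s, the transcription factor made from spliced XBP1 mRNA when the endoplasmic reticulum is under stress, and in shCtrl (n = 3) they carried the negative control. By the study's methods the hairpin was stably transduced, whereas the labels speak of transfection, and they name no drug or stress agent for either group. Whether cells were cloned or pooled after transduction is not given in the sources used here. No label says that the 3 samples of a group came from separate cultures, so the p-values measure the spread between these samples, which may be technical.

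In stratified epithelium, p63 holds cells in the basal, proliferating state, and SOX2 acts beside it in squamous carcinomas. TFAP2A (AP-2α) activates many keratinocyte genes, and PAX9 is a regulator of oral and oesophageal epithelium. KLF5 is expressed in proliferating basal cells. KLF4, GRHL1, GRHL3, ZNF750 and OVOL1 act as cells leave the basal layer, when they switch off the basal programme, seal the barrier and make the cornified envelope.

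In shXBP-1s cells, TP63 was 1.91-fold higher than in shCtrl (n = 3 arrays per group throughout). By their brighter probes, GRHL3 was 1.80-fold and PAX9 1.36-fold higher, while the dimmer GRHL3 probe did not pass the test. SOX2 was 2.04-fold lower, TFAP2A 1.997-fold lower and ZNF750 1.44-fold lower. KLF4, KLF5, GRHL1 and OVOL1 did not pass the test by their brightest probe. The 10 genes therefore did not move together. Their median log2 fold change was -0.04, and that of all 16821 tested genes was also -0.04.

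Signals are given below as the log2 of the background-subtracted intensity minus the log2 of the 75th percentile of the same array, so 0 is a signal at that percentile and each unit is a doubling. Changes are shXBP-1s minus shCtrl on this scale, with the standard error (SE) from limma, and adjusted p-values are limma's after Benjamini-Hochberg adjustment over all 27624 tested probes. Levels of different probes cannot be compared with each other, since each probe has its own brightness. All 13 probes were well above background on all 6 arrays and none was saturated, so each of the 13 was tested and none passed through 1 group alone.

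XBP1 was checked first. Its log2 signal was 1.88, 1.85 and 1.87 in shCtrl and -0.50, -0.54 and -0.52 in shXBP-1s, a change of -2.39 (SE 0.04, adjusted p = 2.81e-07). The 3 knockdown arrays thus lay far below the 3 control arrays. Which of the spliced and unspliced XBP1 transcripts this probe reads was not tested, so the fall is of XBP1 signal and not of XBP-1s alone. Between 82.1% and 84.8% of spots were well above background on the 6 arrays. Control replicates 2 and 3 were on slide 1, and control replicate 1 was on slide 2 with all 3 knockdown arrays, so a value within the slide rests on a single control array. When control replicate 1 is left out, the groups lie on separate slides, and group and slide cannot be told apart.

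All 12 squamous markers were above background on every array. So were 4 of 5 simple epithelium, 11 of 12 mesenchymal, all 9 leukocyte and all 4 endothelial markers. Detection alone therefore does not identify the line. Their summed signal, in units of the 75th percentile of the array, was 129.2 to 136.0 in shCtrl and 189.0 to 230.0 in shXBP-1s. Past the adjusted p, 9 of the 12 rose and none fell. The sums here are dominated by their brightest probes, so they do not measure a squamous or other state. Mean log2 signals in shCtrl were 4.67 to 5.50 for CDH1, EPCAM, PERP and SFN, and 0.37 to 0.76 for KRT5, KRT14 and KRT17. The other squamous markers were lower: DSC3 0.01, DSG3 -0.49, KRT6A -1.93, KRT16 -3.80 and PKP1 -5.22. CDH1 (0.13, adjusted p = 0.143) and EPCAM (0.01, adjusted p = 0.881) did not pass. The 5 keratins of simple epithelium summed to 58.2 to 64.6 in shCtrl and 36.8 to 38.6 in shXBP-1s, where KRT8 (change -0.92) and KRT18 (-0.71) fell. The 12 mesenchymal markers summed to 3.42 to 3.52 and 3.85 to 4.24, with COL3A1 at no array above background, and of the 11 tested 2 rose and 5 fell. The 9 leukocyte markers summed to 4.96 to 6.84 and 3.74 to 4.06, with 1 higher and 2 lower past the adjusted p, and the 4 endothelial markers to 0.215 to 0.275 and 0.260 to 0.277, with none. The part of these shifts in the changes of the lineage factors was not tested. In RNA from a whole culture, a change in the number of cells of one state and a change in RNA per cell cannot be told apart.

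At an adjusted p below 0.05, 7 of the 13 lineage factor probes (53.8%) differed between the groups, against 41.7% of all tested probes. Of the 13, 4 were higher (30.8%) and 3 lower (23.1%) in shXBP-1s, beside 18.4% higher and 23.3% lower over all tested probes. Only 1 of the 13, SOX2, also reached the 2-fold change that was set for a call, where 4.9% of all tested probes were called. The values of the groups did not overlap for 8 of the 13 probes, and for 52.4% of all tested probes. These shares are close to the background and give no result about the factors as a set. The genes are described singly below by their roles.

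**Figure D1:**
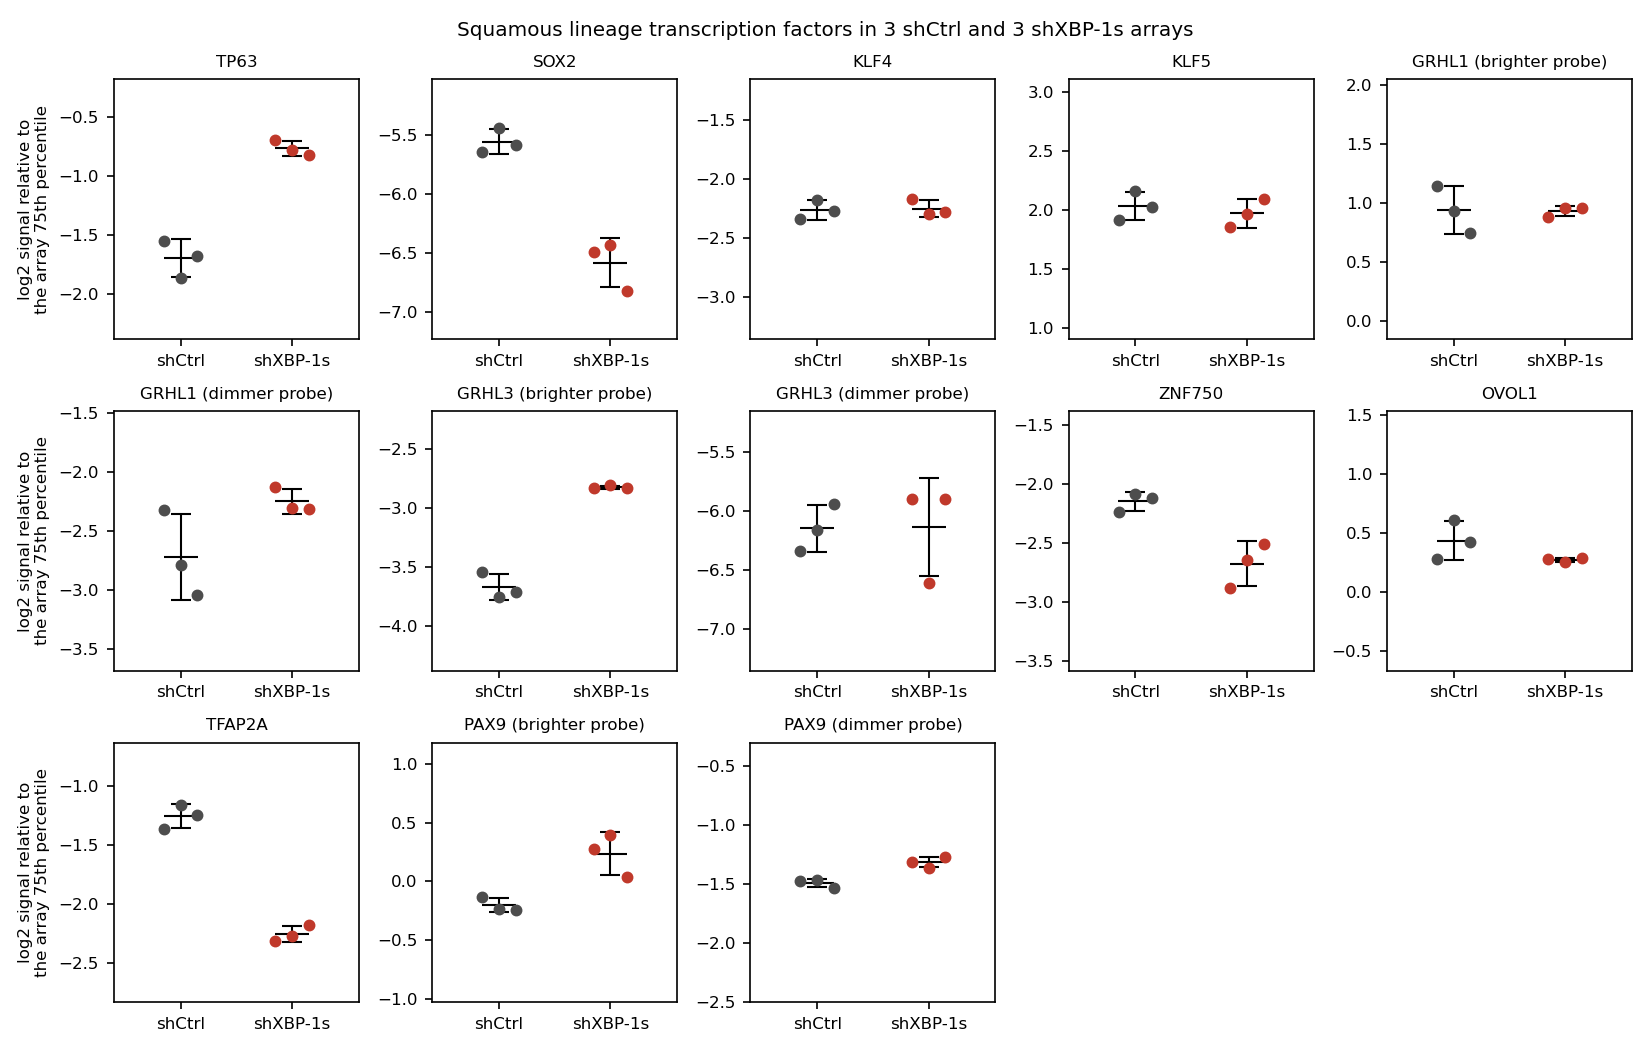
Log2 signal relative to the 75th percentile of the array (y axis) for each of the 13 probes in the shCtrl arrays (grey) and the shXBP-1s arrays (red), 1 point per array, with the mean and SD of the 3 arrays as bars. Every panel spans the same height on the log2 scale. The points of the 2 groups are apart for TP63, SOX2, TFAP2A, ZNF750, the brighter GRHL3 probe and both PAX9 probes, and lie over each other for KLF4, KLF5 and OVOL1.

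TP63 encodes p63, the master regulator of the basal layer. Its probe is annotated to NM_003722, a transcript of the longer, TA class, and which of the TA and ΔN transcripts it reads was not tested. Shown here are the 250 bases before the first start site of the gene, at chr3:189631139-189631388 of GRCh38.p14 on the plus strand, from RefSeq, since TP63 had the largest rise among the factors. Capitals mark the only match to any of 6 short motifs searched on both strands in the windows printed here: ACGT, the core bound by XBP-1s and other bZIP factors; CCACG, a part of the endoplasmic reticulum stress element; CACCC, the KLF box; GCCNNNGGC, the AP-2 site; CATTGT, a SOX site; and AACCGGTT, the GRHL site.

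TP63: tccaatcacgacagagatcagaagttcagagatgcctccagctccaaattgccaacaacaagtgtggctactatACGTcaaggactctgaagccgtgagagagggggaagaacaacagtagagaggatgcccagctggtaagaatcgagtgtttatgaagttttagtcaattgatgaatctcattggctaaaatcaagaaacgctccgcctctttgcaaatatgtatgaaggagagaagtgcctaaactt

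The ACGT begins 176 bases before the start. Whether the TP63 transcripts that rose begin at this start was not tested. Of the 35116 RefSeq windows of this length, 29.3% hold ACGT, so a match is common and is a description of the letters only. Among the factors, the window of KLF4, which did not pass the test, also holds ACGT, 156 bases before the start. CCACG is in windows of KLF4, KLF5 and PAX9. These windows are not printed here. The log2 signal of TP63 was -1.55, -1.87 and -1.68 in shCtrl and -0.70, -0.78 and -0.82 in shXBP-1s. All 3 knockdown arrays lay above all 3 controls, with a gap between the groups wider than the spread within either. The means were -1.70 ± 0.16 and -0.77 ± 0.06 (SD, n = 3), a change of 0.93 (SE 0.08, 95% interval 0.74 to 1.13, adjusted p = 7.57e-05). Against the control array of the same slide alone the change was 0.78. Its adjusted p of 0.000839 is limma's with the slide as a block, which takes the spread from all arrays. The same holds for every adjusted p given within the slide below, where the change itself rests on that single control array. TP63 stayed past the adjusted p under all 19 alternative settings, between 0.61 and 1.01. The lowest value came with normexp background correction, which lowered the median of all tested probes to -0.41, and relative to that median TP63 was 1.03 higher.

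SOX2, a high mobility group factor of the foregut and oral epithelium that is often amplified in squamous carcinomas, fell. Its window, chr3:181711675-181711924 on the plus strand, is shown because SOX2 was the only called factor, with an AP-2 match beginning 131 bases before the start in capitals. A match of this kind is in 19.8% of windows.

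SOX2: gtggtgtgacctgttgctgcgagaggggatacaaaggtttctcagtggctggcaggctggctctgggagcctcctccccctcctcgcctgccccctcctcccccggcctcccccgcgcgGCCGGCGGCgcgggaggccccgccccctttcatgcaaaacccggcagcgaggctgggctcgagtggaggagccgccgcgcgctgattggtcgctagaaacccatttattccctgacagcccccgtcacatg

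The log2 signal of SOX2 (NM_003106) was -5.65, -5.44 and -5.59 in shCtrl and -6.50, -6.44 and -6.83 in shXBP-1s. The knockdown arrays were all below the controls, but the intensities behind these values were small, 13.7 to 17.5 units in shCtrl and 7.0 to 10.9 in shXBP-1s, where the lowest intensity that any probe well above background had on an array was 4.86 to 7.35. The means were -5.56 ± 0.11 and -6.59 ± 0.21, a change of -1.03 (SE 0.17, 95% interval -1.42 to -0.63, adjusted p = 0.00185). Within the slide the change was -0.94 (adjusted p = 0.0203). The call at 2-fold was made under 14 of the 19 settings and was lost without shCtrl replicate 2 (-0.97), without shXBP-1s replicate 3 (-0.91), with the slide as a block, and with normexp (-1.04), where SOX2 missed the adjusted p. With normexp correction followed by quantile normalization the change was -0.17, while quantile normalization alone gave -1.03. SOX2 kept its sign in all 19.

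TFAP2A fell by an amount just short of the 2-fold limit. AP-2α binds the promoters of many keratin genes in basal and suprabasal keratinocytes. RefSeq gives it 2 windows on the minus strand, chr6:10419660-10419909 and chr6:10412392-10412641, printed because its change had the smallest adjusted p among the factors. Each holds 1 KLF box in capitals, beginning 142 and 25 bases before its start, and 54.7% of all windows hold one.

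TFAP2A window 1: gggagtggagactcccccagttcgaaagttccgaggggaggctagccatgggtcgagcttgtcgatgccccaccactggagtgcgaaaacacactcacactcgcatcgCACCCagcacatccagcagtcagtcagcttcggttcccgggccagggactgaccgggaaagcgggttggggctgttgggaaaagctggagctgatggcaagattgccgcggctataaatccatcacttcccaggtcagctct
TFAP2A window 2: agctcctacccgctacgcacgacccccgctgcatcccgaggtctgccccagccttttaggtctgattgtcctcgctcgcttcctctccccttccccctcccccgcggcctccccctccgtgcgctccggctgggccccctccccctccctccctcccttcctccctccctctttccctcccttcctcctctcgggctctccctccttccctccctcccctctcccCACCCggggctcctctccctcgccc

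The log2 signal of TFAP2A (NM_001032280) was -1.37, -1.16 and -1.25 in shCtrl and -2.31, -2.28 and -2.18 in shXBP-1s. The groups were far apart and each was tight. The change was -0.998 (SE 0.07, 95% interval -1.16 to -0.83, adjusted p = 2.22e-05), and -0.89 within the slide (adjusted p = 0.000292). It was past the adjusted p under all 19 settings, between -1.05 and -0.75, and reached 2-fold in 2 of them, without shCtrl replicate 1 and without shXBP-1s replicate 3. TFAP2A and SOX2 thus lie just outside and just inside the 2-fold limit, with intervals that overlap widely.

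PAX9, a paired-box factor of oral and oesophageal squamous epithelium, was read by 2 probes of one accession, NM_006194. The brighter one gave -0.14, -0.23 and -0.24 in shCtrl and 0.28, 0.39 and 0.04 in shXBP-1s, and the dimmer one -1.47, -1.47 and -1.53 against -1.31, -1.36 and -1.27. Both probes were higher on every knockdown array than on any control array. The change was 0.44 (SE 0.09, 95% interval 0.23 to 0.65, adjusted p = 0.00509) by the brighter and 0.17 (SE 0.05, 95% interval 0.05 to 0.30, adjusted p = 0.0283) by the dimmer probe. With the slide as a block neither probe passed, at 0.37 (adjusted p = 0.0602) and 0.15 (adjusted p = 0.156). The dimmer probe passed under 10 of the 19 settings and the brighter one under 18.

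Among the factors of differentiation, GRHL3 moved most. It is a grainyhead-like factor needed for the epidermal barrier, through cornified envelope and lipid genes. RefSeq gives 2 windows on the plus strand, chr1:24319107-24319356 and chr1:24322790-24323039, and both are printed because the 2 probes of GRHL3 are annotated to different transcripts. The first holds 3 KLF boxes, beginning 118, 111 and 78 bases before the start, and 1 SOX match on the other strand, beginning 242 bases before it. The second holds a SOX match at 220 bases, an AP-2 match at 50 bases and a KLF box at 41 bases that follows it directly, in 1 run of capitals. A SOX match is in 9.29% of all windows.

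GRHL3 window 1: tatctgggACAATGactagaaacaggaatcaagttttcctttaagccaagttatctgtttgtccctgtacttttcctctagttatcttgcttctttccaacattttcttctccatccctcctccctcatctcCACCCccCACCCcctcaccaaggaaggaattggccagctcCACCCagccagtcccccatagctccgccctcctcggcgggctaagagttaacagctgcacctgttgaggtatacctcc
GRHL3 window 2: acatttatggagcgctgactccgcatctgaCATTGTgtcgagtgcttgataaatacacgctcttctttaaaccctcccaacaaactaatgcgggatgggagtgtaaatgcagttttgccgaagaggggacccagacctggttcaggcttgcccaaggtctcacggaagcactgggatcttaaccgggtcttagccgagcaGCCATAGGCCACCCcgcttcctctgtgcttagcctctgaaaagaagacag

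The probe annotated to NM_198173 gave -3.55, -3.75 and -3.72 in shCtrl and -2.83, -2.81 and -2.84 in shXBP-1s. The knockdown values were nearly equal and all above the controls, a change of 0.85 (SE 0.08, 95% interval 0.67 to 1.03, adjusted p = 8.28e-05), and 0.72 within the slide (adjusted p = 0.000906). It passed under 18 of the 19 settings. With normexp the value was -0.07, which is 0.35 above the median of all probes under that correction, and with normexp and quantile normalization it was 0.48. The dimmer probe, annotated to NM_198174, gave -6.34, -6.16 and -5.94 against -5.90, -6.61 and -5.90, with intensities of only 8.5 to 16.5 units. Its groups overlapped, and its change of 0.01 had a 95% interval of -0.54 to 0.56 (adjusted p = 0.973). The change of the brighter probe exceeded that of the dimmer by 0.83, with no overlap between groups in the difference of the 2 signals (exact permutation test, 2-sided, p = 0.1, the smallest that 3 arrays against 3 can give).

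ZNF750, a zinc finger repressor and activator that p63 induces and that promotes terminal differentiation, changed in the opposite direction to TP63. Its log2 signal (NM_024702) was -2.24, -2.08 and -2.12 in shCtrl and -2.88, -2.64 and -2.50 in shXBP-1s. The groups did not overlap, and the knockdown arrays varied more than the controls. The change was -0.53 (SE 0.10, 95% interval -0.76 to -0.29, adjusted p = 0.00377), and -0.44 within the slide (adjusted p = 0.0483). It passed under 18 of 19 settings and missed the threshold with normexp, and its smallest value, -0.34, came with normexp and quantile normalization.

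GRHL1, another grainyhead-like factor, which controls desmosomal cadherin genes, was read by 2 probes of NM_198182 that differed. The brighter probe gave 1.15, 0.93 and 0.75 in shCtrl and 0.88, 0.96 and 0.96 in shXBP-1s, with all knockdown values inside the range of the controls. Its change was -0.01 (95% interval -0.23 to 0.21, adjusted p = 0.952). The dimmer probe gave -2.33, -2.79 and -3.04 against -2.13, -2.30 and -2.31, so the groups were separated only by a narrow gap between shCtrl replicate 1 and the lowest knockdown arrays. Its change of 0.47 (SE 0.17, 95% interval 0.09 to 0.86) missed the threshold at an adjusted p of 0.0524, and was 0.08 within the slide. It passed under 6 of the 19 settings. The difference between the changes of the probes was -0.48 with no overlap (exact permutation test, 2-sided, p = 0.1, the smallest possible).

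KLF4 and KLF5, zinc finger factors of the suprabasal and the basal compartment, respectively, gave narrow intervals around 0. KLF4 (NM_004235) was at -2.35, -2.18 and -2.27 in shCtrl and -2.18, -2.30 and -2.28 in shXBP-1s, with a change of 0.01 (95% interval -0.15 to 0.17, adjusted p = 0.904). KLF5 (NM_001730) was at 1.92, 2.16 and 2.03 against 1.86, 1.97 and 2.09, with a change of -0.06 (95% interval -0.25 to 0.12, adjusted p = 0.561). Their groups overlapped, and neither passed under any of the 19 settings.

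OVOL1, a zinc finger repressor that favours exit from the progenitor state, was at 0.28, 0.61 and 0.42 in shCtrl and 0.28, 0.25 and 0.28 in shXBP-1s (NM_004561). The control array on the slide of the knockdown arrays equalled them, and the other two controls were higher. The change was -0.16 (SE 0.08, 95% interval -0.35 to 0.02, adjusted p = 0.143), and -0.0036 within the slide (adjusted p = 0.98). It passed under 1 setting, without shCtrl replicate 1, where the groups lay on separate slides.

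**Figure D2:**
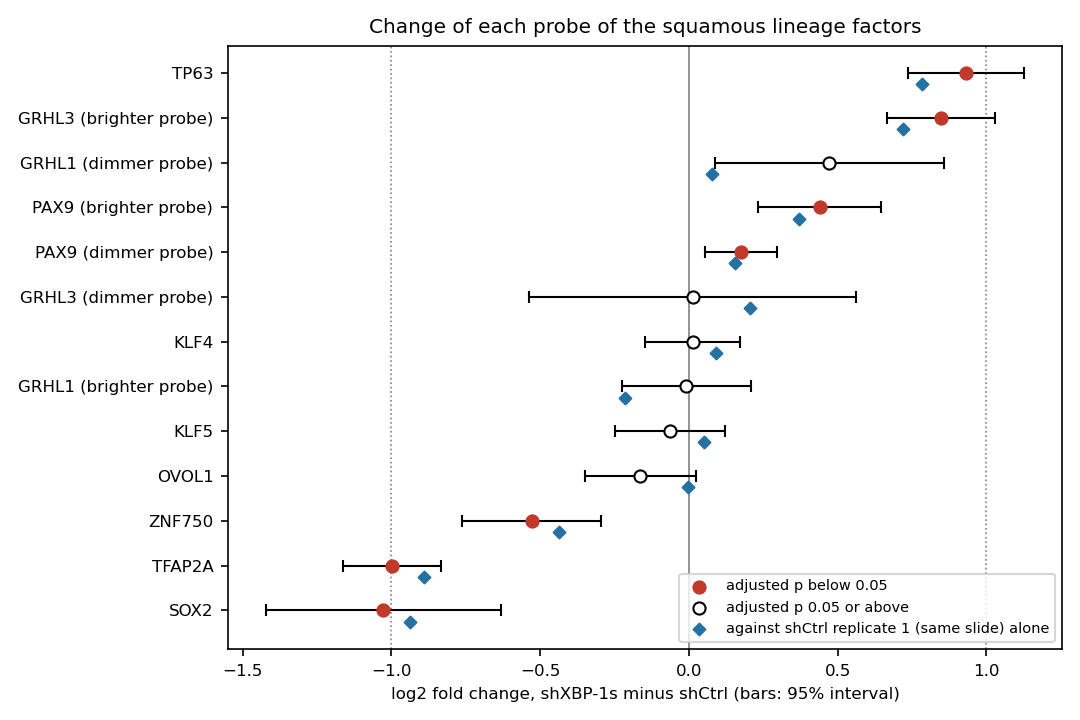
Log2 fold change of each probe, shXBP-1s minus shCtrl (x axis), with the 95% interval from limma as bars. Filled points are past an adjusted p of 0.05, diamonds are the change against control replicate 1 alone, the control on the same slide, and dotted lines mark 2-fold. TP63 and the brighter GRHL3 probe lie near 0.9 on the higher side, and SOX2 and TFAP2A near -1.0 on the lower. The diamonds are nearer to 0 than the circles for all 7 filled points.

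The paralogues of the factors gave no common direction either. Of 35 family members (the other KLF, SOXB, GRHL, OVOL, TFAP2 and PAX genes and relatives of TP63), 28 were tested, and 4 rose (14.3%) and 9 fell (32.1%), beside 18.9% and 27.5% of all 16821 tested genes, with a median of -0.07. The rises were led by KLF7 (1.58, SE 0.09, adjusted p = 8.62e-06) and KLF6 (1.53, SE 0.08, adjusted p = 5.99e-06), both of which are ubiquitous zinc finger factors, and these were the only called paralogues. TFAP2C, which encodes AP-2γ, rose by 0.21 (adjusted p = 0.0181), and its value with normexp was -0.04. KLF11 (-0.80), PAX6 (-0.68) and KLF2 (-0.58) fell, with adjusted p-values of 0.000315, 9.01e-05 and 0.000376. The other 2 tested PAX6 probes were at 0.04 (adjusted p = 0.798) and -1.25 (adjusted p = 0.00189). SOX1, counted among the falls, was not well above background on any knockdown array and entered the test through shCtrl alone. It was at least 1.597-fold lower in shXBP-1s, a bound that its p-value does not test. GRHL2, the third grainyhead-like gene, was at -0.07 (adjusted p = 0.447). TP73 was at -0.21 (adjusted p = 0.0842) by its brighter probe and at -0.31 (adjusted p = 0.0428) by the dimmer.

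Of 50 other regulators of squamous cells, 48 were tested, and 15 rose (31.2%) and 13 fell (27.1%), with a median of 0.03. Over all tested genes 18.9% rose and 27.5% fell. MAF, a factor of late epidermal differentiation, rose most (1.88, SE 0.11, adjusted p = 1.02e-05, but 0.61 and not past the threshold with normexp). SOX9, a factor of hair follicle progenitors and of repair, rose by 1.23 (SE 0.08, adjusted p = 1.06e-05). ELF3, an ETS factor of differentiating epithelium, fell most (-1.27, SE 0.08, adjusted p = 1.18e-05). RXRA (-0.79, adjusted p = 0.000243), the partner of retinoid and vitamin D receptors, GATA3 (-0.79, adjusted p = 0.0114), a partner in epidermal lineage choice, and CEBPB (-0.73, adjusted p = 1.34e-05), which halts the growth of differentiating keratinocytes, also fell. The GATA3 probe had a low signal, with means of -5.46 in shCtrl and -6.25 in shXBP-1s, which limits its value. HOPX rose by 0.73 (adjusted p = 0.0332) but was at 0.15 within the slide (adjusted p = 0.425) and at -0.48 with normexp, and its other probe was at 0.09 (adjusted p = 0.734).

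Within this list, the genes of the Notch pathway, by which basal cells are directed to differentiate, were divided. HES2, of the family of Notch-induced repressors, rose by 1.43 (SE 0.05, adjusted p = 2.09e-06) and the ligand JAG1 by 0.60 (adjusted p = 0.000155). The receptor NOTCH3 (-0.52, adjusted p = 4.66e-05), the ligands JAG2 (-0.55, adjusted p = 0.00205) and DLL1 (-0.26, adjusted p = 0.0053), and RBPJ, the DNA-binding partner of Notch (-0.67, adjusted p = 2.45e-05), fell. HES1 (0.01, adjusted p = 0.917) and HEY1 (0.13, adjusted p = 0.118) did not pass. The receptors NOTCH1 and NOTCH2 had 2 probes each, and only the dimmer one passed. For NOTCH1 the brighter probe was at -0.22 (adjusted p = 0.22) and the dimmer, of the same accession, at -1.62 (SE 0.10, adjusted p = 1.38e-05). For NOTCH2 they were at 0.13 (adjusted p = 0.0794) and 0.23 (adjusted p = 0.0144).

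Among the genes of the basal layer, which include many targets of p63, rises outnumbered falls. Of 38 such genes 37 were tested, and 24 rose (64.9%) and 5 fell (13.5%), with a median of 0.61. Over all tested genes 18.9% rose and 27.5% fell. The list was chosen with earlier results of these data known, so the excess describes the list and tests nothing. NRG1, an EGF family ligand, rose by 1.71 (SE 0.06, adjusted p = 2.02e-06). The basal keratins KRT14 (1.58, SE 0.07, adjusted p = 3.32e-06), KRT17 (1.53, SE 0.05, adjusted p = 1.55e-06) and KRT5 (1.43, SE 0.04, adjusted p = 1.09e-06) rose together. The exceptions were the receptor FGFR3 (-1.18, SE 0.11, adjusted p = 7.6e-05), the matrix protein FRAS1 (-0.53), the ligand WNT10A (-0.50), the keratin KRT15 (-0.43) and the hyaluronan receptor CD44 (-0.24), with adjusted p-values from limma of 7.6e-05 to 0.0333. The 12 squamous markers above share 8 genes with this list, so the 2 counts are not separate observations. The mesenchymal markers share 1 gene with it, SNAI2, which is counted among the rises of both.

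Among 52 terminal differentiation genes, 45 were tested, and 19 rose (42.2%) and 4 fell (8.89%), while the other 22 did not pass and the median was 0.07. Over all tested genes 18.9% rose and 27.5% fell. This list was also chosen with earlier results of these data known, so its counts are a description. The cornified envelope precursors SPRR2A (4.02, SE 0.20, adjusted p = 5.14e-06) and SPRR1B (3.70, SE 0.17, adjusted p = 3.48e-06) and the ammonium transporter RHCG of upper oral epithelium (2.33, SE 0.05, adjusted p = 4.28e-07) rose most among those measured in both groups, by their brightest probes. A dimmer SPRR2A probe of the same accession gave 0.93 (SE 0.14, adjusted p = 0.00105). The SPRR1A probes differed too, at 0.19 (adjusted p = 0.0247) by the brighter and 3.04 (SE 0.21, adjusted p = 1.78e-05) by the dimmer. SPRR2D did not pass by its brighter probe (0.07, adjusted p = 0.34), but its dimmer probe gave 1.56 (SE 0.18, adjusted p = 0.000252). TMPRSS11E, a serine protease counted among the rises, was not well above background on any control array. It entered the test through shXBP-1s alone, where it was at least 8.56-fold higher. Its p-value does not test this bound and is not given, and its value with normexp was -0.10. TGM1, the transglutaminase that links the envelope, rose by 1.21 (adjusted p = 2.6e-05). CALML5 (-1.24, SE 0.11, adjusted p = 7.6e-05), a calcium-binding protein of the epidermis, PPL (-0.47, adjusted p = 0.00549), KRT80 (-0.44, adjusted p = 0.000247) and CNFN (-0.35, adjusted p = 0.00593) fell. The suprabasal keratins KRT1 (-0.02, adjusted p = 0.935), KRT10 (-0.09, adjusted p = 0.224), KRT4 (-0.09, adjusted p = 0.338) and KRT13 (-0.19, adjusted p = 0.0919) did not pass. SPRR genes are near copies of each other, and which copies a probe reads was not tested.

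**Figure D3:**
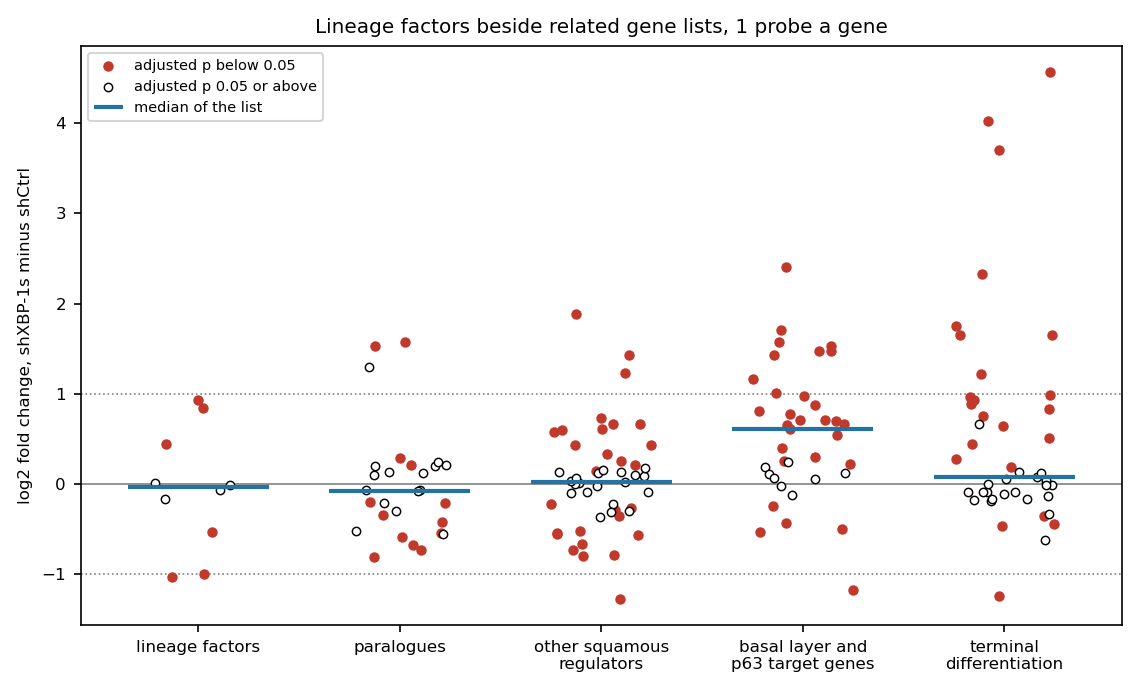
Log2 fold change of each tested gene, shXBP-1s minus shCtrl (y axis), by its brightest probe, for the 10 lineage factors and the 4 related lists (x axis), with filled points past an adjusted p of 0.05, lines at the median of each list and dotted lines at 2-fold. The factors lie within about 1 unit of 0 on both sides, and the basal genes have their median at 0.61. The terminal differentiation genes have a median of 0.07 and a tail on the higher side. Its top point, 4.57, is TMPRSS11E, which was not well above background on any control array, so its size is not a measured change. The next, SPRR2A at 4.02, was measured in both groups.

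Over the related lists, 32 genes had more than 1 tested probe, and 8 of them had probes of opposite sign. For CERS3 and EGFR, probes passed the adjusted p in both directions, so the direction of these 2 genes depends on the probe.

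**Figure D4:**
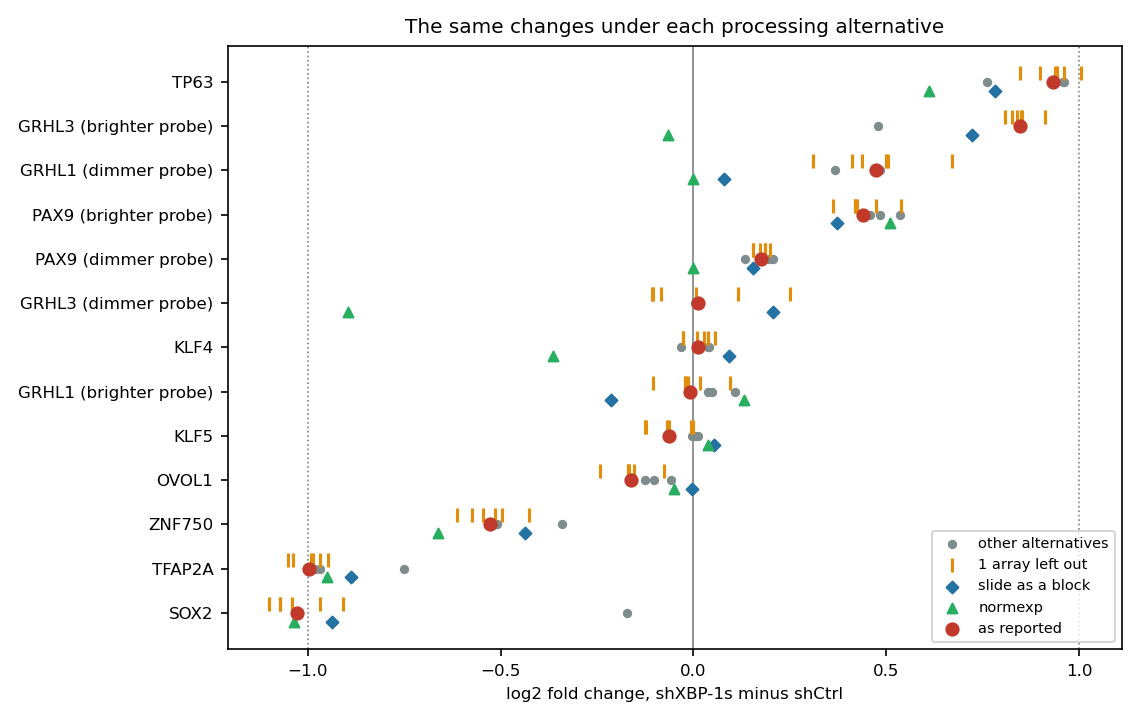
Log2 fold change of each lineage factor probe, shXBP-1s minus shCtrl (x axis), as reported and under each alternative setting. The 7 probes past the adjusted p keep their side of 0 except the brighter GRHL3 and the dimmer PAX9 probe with normexp, and SOX2 has 1 value near 0, at -0.17 with normexp and quantile normalization.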

How the data were processed

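All 6 samples were used, with groups from the sample labels. The authors deposited Agilent Feature Extraction 11.0.1.1 output, in which a spot's intensity is background-subtracted but not normalized between arrays, and a table of log2 values made by a process not described for the arrays in the paper (the submitters' processing notes name RMA). That log2 table served as an alternative. The labels describe NimbleGen labelling although the files are of an Agilent array.

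From each log2 intensity the array's own 75th percentile was subtracted, outlier-flagged spots (230 to 377 per array) were left out, and spots of a probe were averaged. The test took the 27624 of 34127 probes that every array of 1 or both groups measured well above background, and was run with limma 3.58.1 in R 4.3.3 (lmFit, eBayes with trend), 2-sided, with Benjamini-Hochberg adjustment. Calls needed an adjusted p below 0.05 and a 2-fold change. A gene was represented by its brightest tested probe. "At least" folds set the bright group against the higher of the dim signal and the lowest signal well above background on each array. Symbols came from RefSeq accessions of GRCh38.p14 (25771 probes matched, 8356 without a symbol). Array annotation names hg19, so only promoter windows carry coordinates, and ZNF750 and OVOL1 had no window in the table used. The members and lists were chosen with earlier results of these data known. From each list the 4 largest rises and 4 largest falls past the adjusted p were named, and the Notch genes, GRHL2, TP73, KRT5, TGM1, CD44 and the suprabasal keratins were added after their values were seen. Some genes that this rule names are not reported here. Same-numbered samples did not deviate together (correlations -0.02, 0.12 and -0.12), so numbers were not treated as pairs. The number of arrays limits precision.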

Additional observations from a re-analysis of the deposited data

How the results depend on the processing

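For 44 single probes followed over up to 19 settings, 834 comparisons with the reported value were made, of which 765 kept direction and side of the threshold, 38 fell short of it, 7 newly passed it and 24 changed sign. After normexp background correction (median spot signals, offset 50), 3 lineage factor probes passed the adjusted p and 0 were called, with 7 paralogues, 15 other squamous regulators and 11 terminal differentiation genes past it; the cause was not tested. Called lineage factor probes were also 0 with normexp and quantile normalization and when the slide was a block, and 4 at a 1.5-fold limit. Leaving out 1 array gave 0 to 3 called probes (3 without shCtrl replicate 1, 0 without shCtrl replicate 2). Without shCtrl replicate 1 the groups lay on separate slides, so that setting cannot tell group from slide. With the replicate block, 7 lineage factor probes, 15 paralogues, 26 other regulators, 29 basal genes and 24 terminal differentiation genes passed; by probe it added the dimmer GRHL1 and took out the dimmer PAX9 probe. Sign changes lay mostly at values near 0. With normexp, the values were -0.36 for KLF4, 0.0378 for KLF5, 0.13 and -0.0018 for the brighter and dimmer GRHL1 probes, -0.0651 and -0.90 for the brighter and dimmer GRHL3 probes, -0.0003 for the dimmer PAX9 probe, -0.0429 for TFAP2C, -0.48 for HOPX and -0.10 for TMPRSS11E, before the shift of the median to -0.41. KLF4 was -0.033 with normexp and quantile normalization. KLF5 was 0.0122 with quantile normalization, 0.0031 by the deposited log2 values and 0.0524 when the slide was a block. The brighter GRHL1 probe was 0.11 with normexp and quantile normalization, 0.0386 with quantile normalization and 0.0491 by the deposited log2 values. Leaving out 1 array gave -0.0275 to 0.0558 for KLF4, -0.11 to 0.094 for the brighter GRHL1 and -0.11 to 0.25 for the dimmer GRHL3 probe. A low signal over background limits SOX2 and the dimmer GRHL3 probe most. When the slide was a block, both PAX9 probes, SOX1, TFAP2C and HOPX no longer passed.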
